A study of Mus musculus with 4 samples.

Results

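Collagens were followed as a gene family in mammary gland RNA of mice that carried, or lacked, a PPARd transgene and that ate chow with or without a PPARd agonist. The family was taken by name, as every probe set whose platform gene symbol was Col, a number, the letter a and a number, and probe sets with several symbols were left out. This gave 58 probe sets of 22690 on the array, for 36 genes of 12393, of which 22 passed a filter that asked for at least 1 array at 139, the median of all values. Values under 20.5 were raised to that floor before log2 differences were taken. The 4 groups were MMTV-PPARd mice on GW501516 chow, MMTV-PPARd mice on plain chow, wild-type mice on GW501516 chow and wild-type mice on plain chow. All were female nulliparous FVB mice, and the wild-type mice were littermates of the transgenic ones. GW501516, a small molecule that activates the lipid-sensing nuclear receptor PPARd, was in the chow for 1 week, at 0.005% in the protocol and source names and at 0.001% in a treatment tag of the labels, a conflict that was left unresolved. The transgene was driven by the mouse mammary tumour virus promoter, which is active in mammary epithelium and in some other tissues. Each group was a pool made from 5 mice, hybridised to 1 array, so no difference had a replicate check, and array and group cannot be told apart.

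Collagens are the main structural proteins of connective tissue. They form trimeric helices whose chains come from different genes, so that genes of one type are often expressed together. Fibrillar types give tensile strength, type IV builds the sheet of basement membranes under epithelium, around fat cells and around vessels, type VI forms beaded filaments near cells, and other types decorate fibrils or anchor epithelium. In the mammary gland most fibrillar collagen is made by stromal fibroblasts, while fat cells, vessels and epithelium add basement membrane chains.

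Values were intensities on a linear scale, with every array scaled to a trimmed mean of about 500, so levels were compared between arrays for a probe set and not between probe sets. Ppard, the transgene's own gene, read 4224 in transgenic mice on GW501516, 1943 in transgenic mice on chow, 1.5 in wild-type mice on GW501516 and 2.1 in wild-type mice on chow, as the labels require. The array of transgenic mice on chow stood apart. Its BioB control, which is spiked in at the hybridisation step, read 32.4, against 438 to 519 on the other arrays, and its Gapdh 3' to 5' ratio was 1.12, against 0.77 to 0.90. Bright control probe sets were low on it too: the middle Gapdh probe set read 2986, against 7171 to 10826 on the other arrays, the middle beta-actin probe set 7656, against 9227 to 11124, and the highest value of any probe set was 14309, against 19396 to 21520. What part these array properties have in the collagen values was not tested. Comparisons without this array were GW501516 in wild type, the transgene on GW501516, and transgenic mice on GW501516 against wild-type mice on chow, and the collagen genes' values in the first or second of them are given below. Mammary markers were present: 9 of 9 milk and alveolar markers and 9 of 9 luminal markers on the array passed the filter.

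Across the family, transgenic mice on chow had the lowest collagen signal. Of the 22 kept collagen genes, 14 (63.6%) had their lowest value on that array, where 27.5% of all kept genes did, and 12 (54.5%) had their highest value in wild-type mice on chow, where 25.4% of all kept genes did. Summed over the 22 genes, intensity was 62693 in transgenic mice on GW501516, 42768 in transgenic mice on chow, 63219 in wild-type mice on GW501516 and 70212 in wild-type mice on chow. The first, the third and the last of these pools thus lay closer to each other than to the transgenic chow pool. Col3a1 and Col1a2, the brightest of these genes, weigh most in the sum, as bright members do in the marker sums below. In such bulk tissue, fewer cells of a type and less RNA per cell cannot be told apart.

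The transgene on chow went with lower values for most collagens. The median log2 difference over the 22 genes was -0.66, with 16 below 0 and 6 above, against a median of 0.02 over all 7835 kept genes. Of all kept genes, 48.0% lay below 0. A gene was called at 2-fold. Col1a1, Col4a2, Col5a1, Col5a3, Col6a1 and Col6a3 were at least 2-fold lower, so 6 of 22 collagens were called lower where 3.7% of all kept genes were. Col4a5 and Col9a3 were at least 2-fold higher, where 5.46% of all kept genes were. Col9a3 passed the filter only through the transgenic chow array, on which it was high. On GW501516 the transgene left the family close to its wild-type level, with a median of -0.13, 13 genes below 0 and 9 above. The share of all kept genes below 0 was 49.4%. There Col9a1 alone was at least 2-fold higher and Col8a1 alone at least 2-fold lower, against 2.82% and 1.19% of all kept genes.

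GW501516 went with opposite signs of the collagen median in the 2 genotypes. In transgenic mice the median was 0.51, a 1.43-fold higher level on GW501516, with 16 of 22 genes above 0, whereas 46.8% of all kept genes lay above 0. Col9a1 was the 1 gene at least 2-fold higher and Col4a5 and Col13a1 were at least 2-fold lower, against 3.98% and 4.07% of all kept genes. In wild-type mice the median was -0.16, with 15 of 22 genes below 0, where 54.9% of all kept genes were. Col8a1 was the 1 gene at least 2-fold higher and no collagen was at least 2-fold lower, against 3.18% and 3.25% of all kept genes. Transgenic mice on GW501516 against wild-type mice on chow gave a median of -0.16, with Col8a1 and Col9a1 at least 2-fold higher and Col5a3 and Col13a1 at least 2-fold lower, against 5.5% and 4.21% of all kept genes. The comparisons share arrays, so their values for a gene are not independent of each other.

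**Figure D1:**
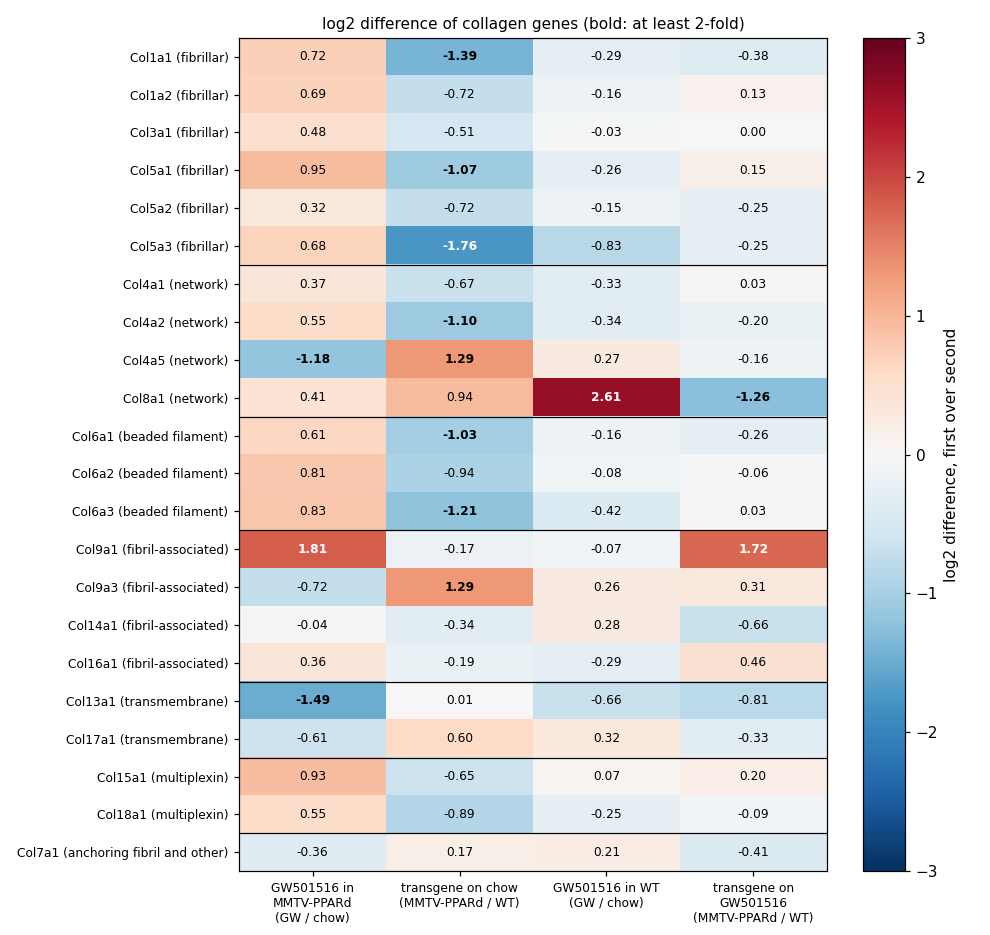
Log2 differences of the 22 kept collagen genes (rows, by class) in the comparisons between 2 arrays (columns), with the difference written in each cell and the colour scale in log2 units. The fibrillar and beaded filament rows are all above 0 for GW501516 in transgenic mice and all below 0 for the transgene on chow.

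Of the 9 fibrillar collagen genes on the array, 6 were kept. Read by the probe set of highest mean, they shared their signs except for the transgene on GW501516. All 6 were lower in transgenic than in wild-type mice on chow (median log2 -0.90), and all 6 were higher on GW501516 than on chow in transgenic mice (0.68). In wild-type mice all 6 were lower on GW501516 (-0.21), from -0.03 for Col3a1 to -0.83 for Col5a3. The transgene on GW501516 split them into 3 above and 3 below 0 (-0.12). Col1a1, which encodes the paired chain of type I collagen, read 1751 in transgenic mice on GW501516, 1065 in transgenic mice on chow, 2280 in wild-type mice on GW501516 and 2782 in wild-type mice on chow. It was 2.61-fold lower with the transgene on chow, and its other probe set (1338, 542, 1230.0 and 1859 in the same order of groups) was 3.43-fold lower. Col1a2, the partner chain, read 13009 in transgenic mice on GW501516, 8089 in transgenic mice on chow, 11871 in wild-type mice on GW501516 and 13291 in wild-type mice on chow. The other pools lay close together and the transgenic chow pool was 1.64-fold below wild type. Col3a1, the type III chain of distensible tissues, read 15984 in transgenic mice on GW501516, 11446 in transgenic mice on chow, 15967 in wild-type mice on GW501516 and 16316 in wild-type mice on chow, so the transgenic chow pool was the low one, 1.43-fold below wild type. On GW501516, and so without that array, the transgene went with a 1.30-fold lower level of Col1a1, a 1.10-fold higher level of Col1a2 and a level of Col3a1 within 1.00-fold. The other probe sets of Col1a1 (1.09-fold higher) and Col1a2 (1.03-fold lower) had the opposite sign there, so the split rests on the choice of probe set.

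Type V collagen, which joins type I fibrils and limits their diameter, showed the widest spread of this class. Col5a3 read 718 in transgenic mice on GW501516, 449.5 in transgenic mice on chow, 851 in wild-type mice on GW501516 and 1518 in wild-type mice on chow. It was 3.38-fold lower with the transgene on chow and 1.78-fold lower with GW501516 in wild type, so here the wild-type chow pool was the high one as well as the transgenic chow pool the low one. Its second probe set was below the floor of 20.5 on all arrays and gave no difference. Col5a1 read 2682 in transgenic mice on GW501516, 1387 in transgenic mice on chow, 2423 in wild-type mice on GW501516 and 2908 in wild-type mice on chow, a 2.10-fold lower level with the transgene on chow, and its other probe sets were 3.53-fold and 2.19-fold lower. Col5a2 was 1.65-fold lower with the transgene on chow and lay between 4252 and 7022 over the 4 arrays. In transgenic mice the other Col5a2 probe set was 1.13-fold lower on GW501516, where the kept one was 1.25-fold higher. On GW501516 the transgene went with 1.19-fold lower Col5a3, 1.11-fold higher Col5a1 and 1.19-fold lower Col5a2. The other Col5a1 probe sets were 1.28-fold and 1.24-fold lower in that comparison. The other fibrillar genes on the array, Col2a1, Col11a1 and Col11a2, which are the cartilage fibril chains, stayed under the filter.

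The windows before the start sites of type I and type III chains are shown because these genes were both lowest on the transgenic chow array. They are the 250 bases upstream of the start in RefSeq, mouse build GRCm38.p6, plus strand, at chr6:4505368-4505617 for Col1a2 and chr1:45311288-45311537 for Col3a1. Capitals mark CCAAT on either strand. They also mark TATAAA, the core letters of the TATA element, and, also on either strand, GGGCGG, the core of the Sp-factor element.
Col1a2: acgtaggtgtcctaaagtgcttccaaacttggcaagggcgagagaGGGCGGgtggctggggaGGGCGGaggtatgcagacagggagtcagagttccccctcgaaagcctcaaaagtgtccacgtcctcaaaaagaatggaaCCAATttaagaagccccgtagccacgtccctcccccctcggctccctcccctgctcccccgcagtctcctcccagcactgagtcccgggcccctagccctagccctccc
Col3a1: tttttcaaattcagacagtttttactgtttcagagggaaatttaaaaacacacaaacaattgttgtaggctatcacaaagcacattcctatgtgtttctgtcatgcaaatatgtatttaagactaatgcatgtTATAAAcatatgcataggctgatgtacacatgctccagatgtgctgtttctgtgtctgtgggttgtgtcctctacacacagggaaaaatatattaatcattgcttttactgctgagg
Col1a2 held 1 CCAAT and 2 GGGCGG and no TATAAA, and Col3a1 held 1 TATAAA and neither of the others, so the windows share none of these letters. Base composition differed too, at 62.0% G and C for Col1a2 and 35.2% for Col3a1. Of 30 windows matched to 27 collagen genes, 12 held CCAAT, 5 held TATAAA and 16 held GGGCGG (53.3%). Of 32851 windows of all genes, 33.9% held CCAAT, 12.4% TATAAA and 32.7% GGGCGG. A match describes letters only.

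Type VI collagen, whose Col6a1, Col6a2 and Col6a3 chains assemble into beaded filaments at the surface of fibroblasts, fat and muscle cells, followed the fibrillar genes. Col6a3, source of the endotrophin fragment, read 3735 in transgenic mice on GW501516, 2096 in transgenic mice on chow, 3647 in wild-type mice on GW501516 and 4862 in wild-type mice on chow. Col6a1 read 1977 in transgenic mice on GW501516, 1296 in transgenic mice on chow, 2367 in wild-type mice on GW501516 and 2648 in wild-type mice on chow. Col6a2 read 4389 in transgenic mice on GW501516, 2503 in transgenic mice on chow, 4566 in wild-type mice on GW501516 and 4816 in wild-type mice on chow. In each gene the transgenic chow pool was the lowest of 4 and the wild-type chow pool the highest. With the transgene on chow the genes were lower by 2.32-fold (Col6a3), 2.04-fold (Col6a1) and 1.92-fold (Col6a2), and the second Col6a2 probe set was 2.49-fold lower. In transgenic mice GW501516 went with 1.78-fold (Col6a3), 1.53-fold (Col6a1) and 1.75-fold (Col6a2) higher levels. On GW501516 the transgene left them at 1.02-fold to 1.20-fold from wild type.

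The network-forming collagens did not move alike. Col4a1 and Col4a2, neighbouring genes that encode the common type IV heterotrimer of basement membranes, were lowest on the same array as the kept fibrillar genes. Col4a1 read 4630 in transgenic mice on GW501516, 3572 in transgenic mice on chow, 4537 in wild-type mice on GW501516 and 5685 in wild-type mice on chow, 1.59-fold lower with the transgene on chow. Col4a2 read 1990 in transgenic mice on GW501516, 1355 in transgenic mice on chow, 2287 in wild-type mice on GW501516 and 2895 in wild-type mice on chow, 2.14-fold lower with the transgene on chow. On GW501516 the transgene went with 1.02-fold higher Col4a1 and 1.15-fold lower Col4a2, and in wild type GW501516 went with 1.25-fold and 1.27-fold lower levels. Col4a5, a chain of the restricted type IV networks of kidney, skin and smooth muscle, did the opposite: 432 in transgenic mice on GW501516, 980.1 in transgenic mice on chow, 483.5 in wild-type mice on GW501516 and 401 in wild-type mice on chow. The transgenic chow pool was the high one, 2.45-fold above wild type, and GW501516 went with a 2.27-fold lower level in transgenic mice, while on GW501516 the transgene went with a 1.12-fold lower level. The second Col4a5 probe set was also highest in transgenic mice on chow and lowest in wild-type mice on chow, at 146.5, 211, 139.5 and 111 in the same order of groups. Col4a6, which pairs with Col4a5 and is transcribed from the same locus, was too dim for the filter but was also highest in transgenic mice on chow (26.0, 76.2, 49.3 and 42.8). Basal epithelium markers, 8 of 9 kept, had a median of 0.62 with the transgene on chow, 7 of them above 0. Of all kept genes, 51.8% were above 0 there. With GW501516 in transgenic mice the basal median was -0.22, with 3 markers above 0 and 5 below. Among these markers Trp63, the basal cell transcription factor, read 249 in transgenic mice on GW501516, 592 in transgenic mice on chow, 236 in wild-type mice on GW501516 and 169 in wild-type mice on chow, with its highest array that of Col4a5. Krt14 had the same highest array but, unlike Col4a5, stayed high in transgenic mice on GW501516 (2818, 3652, 335 and 323 in the same order of groups). Myh11 was lowest in transgenic mice on chow (602, 325, 453 and 394). The summed basal markers were 14580 in transgenic mice on GW501516, 15551 in transgenic mice on chow, 11467 in wild-type mice on GW501516 and 10411 in wild-type mice on chow, and their part in the Col4a5, Col4a6 and Col17a1 values was not tested. Col4a3, Col4a4 and Col10a1, the hypertrophic cartilage network chain, were below the floor on all arrays.

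Col8a1, a short-chain network collagen of vessel walls and of the corneal basement membrane, stood out in wild-type mice on GW501516. It read 235 in transgenic mice on GW501516, 177 in transgenic mice on chow, 563 in wild-type mice on GW501516 and 92.2 in wild-type mice on chow. GW501516 went with a 6.11-fold higher level in wild type and a 1.33-fold higher level in transgenic mice, and with GW501516 the transgene went with a 2.40-fold lower level. The chow pool of wild type lay under the filter value of 139, and the gene was kept through the other arrays. Its second probe set was above the floor of 20.5 only in wild-type mice on GW501516, at 31.2, so it has the same highest array and gives only a bound, of at least 1.52-fold. The endothelial markers, 9 of 10 kept, were at a summed 4901, 4208, 4824 and 4260 over the groups in the same order. For GW501516 in wild type their median was 0.16, with 5 above 0 and 4 below, where 45.0% of all kept genes were above 0. Of them Vwf, von Willebrand factor, read 503 in transgenic mice on GW501516, 288 in transgenic mice on chow, 647 in wild-type mice on GW501516 and 468 in wild-type mice on chow. Pecam1, lower on GW501516 in wild type, read 304, 241, 297 and 325 in the same order. Pericyte markers, 7 of 7 kept, summed to 8084, 6372, 8534 and 7528. For GW501516 in wild type their median was 0.29, with 4 above 0 and 3 below. Only Des, desmin, which skeletal muscle also expresses and which is in the muscle list too, was at least 2-fold higher. Des read 1353 in transgenic mice on GW501516, 294 in transgenic mice on chow, 1716 in wild-type mice on GW501516 and 191 in wild-type mice on chow. Pdgfrb, lower on GW501516 in wild type, read 1763, 1381, 1966 and 2620 in the same order. The part of these cells in the Col8a1 values was not tested.

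**Figure D2:**
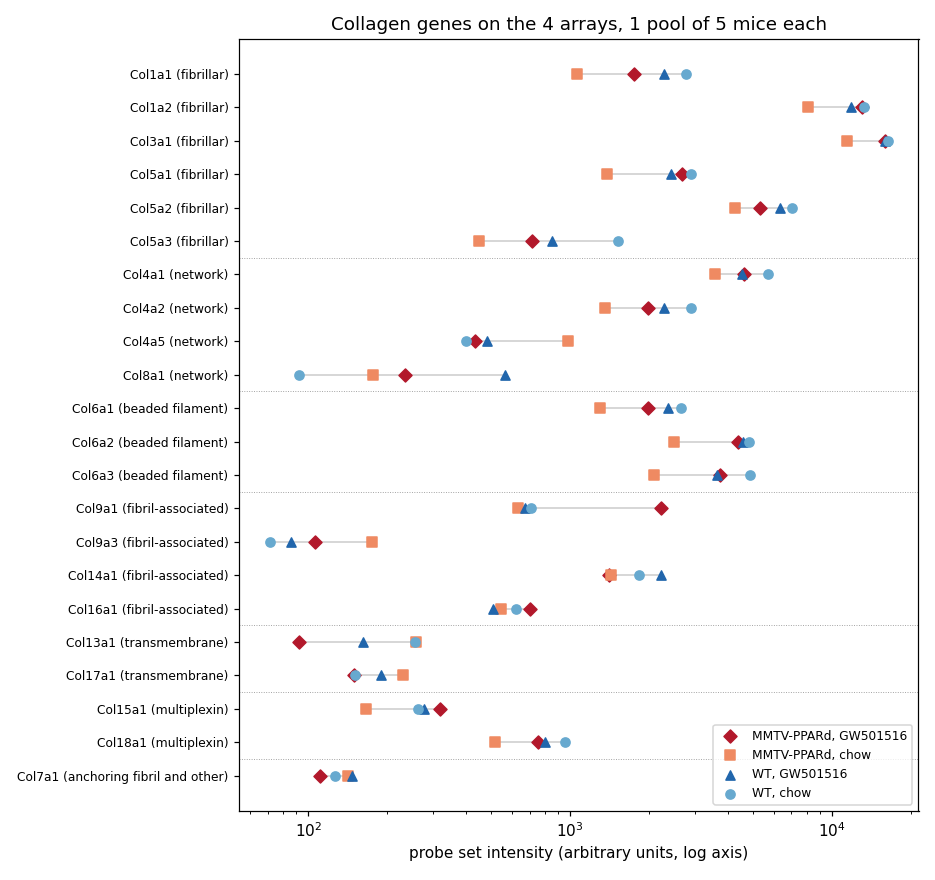
Probe set intensity (horizontal log axis, arbitrary units) of the 22 kept collagen genes (rows, by class), with 1 symbol for each of the 4 arrays and a grey line over their range. Transgenic chow is at the left end for 14 genes and at the right end for 4 (Col4a5, Col9a3, Col13a1 and Col17a1), while Col9a1 is highest in transgenic GW501516 and Col8a1 in wild-type GW501516.

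Col9a1 was the collagen that differed most in transgenic mice on GW501516. It belongs to the fibril-associated group and encodes a type IX chain known from cartilage and the eye. It read 2220 in transgenic mice on GW501516, 631 in transgenic mice on chow, 675.5 in wild-type mice on GW501516 and 711 in wild-type mice on chow. The other pools were within 1.13-fold of each other, and transgenic mice on GW501516 were 3.52-fold above transgenic mice on chow and 3.29-fold above wild-type mice on GW501516. The second of these comparisons does not use the array that stood apart. The second probe set showed the same single high array (275, 84.1, 93.1 and 105), at 3.27-fold and 2.96-fold. Col9a2 stayed under the filter, between 23.6 and 36.1. Col9a3 read 106 in transgenic mice on GW501516, 175 in transgenic mice on chow, 85.8 in wild-type mice on GW501516 and 71.5 in wild-type mice on chow, so it peaked on a different array from Col9a1 and passed the filter only through that array. On GW501516 the transgene went with a 1.24-fold higher level. A second Col9a3 probe set (29.3, 165, 66.7 and 52.4) had the same peak, but lay below wild type in transgenic mice on GW501516, where the kept one lay above. The cartilage markers Acan, Matn1 and Matn3 were below the floor on all arrays, and of the 7 on the array only Sox9 passed the filter, with 137 in transgenic mice on GW501516, 413 in transgenic mice on chow, 154 in wild-type mice on GW501516 and 92.5 in wild-type mice on chow.

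Both Col9a1 starts in RefSeq are shown because this gene was the one high in transgenic mice on GW501516. The windows are at chr1:24177360-24177609 and chr1:24194953-24195202, build GRCm38.p6, plus strand. Capitals mark AGGTCA, the half-site letters that nuclear receptors read, and CCAAT, each on either strand.
Col9a1, upstream start: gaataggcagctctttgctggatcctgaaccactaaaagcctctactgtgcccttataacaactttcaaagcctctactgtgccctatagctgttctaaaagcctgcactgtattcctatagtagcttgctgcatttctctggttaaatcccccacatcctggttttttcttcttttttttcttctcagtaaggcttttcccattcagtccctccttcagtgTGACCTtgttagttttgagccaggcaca
Col9a1, downstream start: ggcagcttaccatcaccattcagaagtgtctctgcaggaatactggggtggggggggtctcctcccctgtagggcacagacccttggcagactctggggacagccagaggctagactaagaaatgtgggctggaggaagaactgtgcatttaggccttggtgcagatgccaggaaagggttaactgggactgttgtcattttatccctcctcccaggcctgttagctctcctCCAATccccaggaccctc
The upstream window held 1 AGGTCA and the downstream window held 1 CCAAT instead. The AGGTCA letters occurred in 16.7% of the collagen windows and in 14.0% of all windows. A direct repeat of AGGTCA with 1 base between, which is the layout of PPAR response elements and contains the shorter motif, was in none of the 30 collagen windows and in 11 of 32851 windows in all (0.033%). These counts concern the exact letters in 250 bases and say nothing of elements elsewhere or with other letters.

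**Figure D3:**
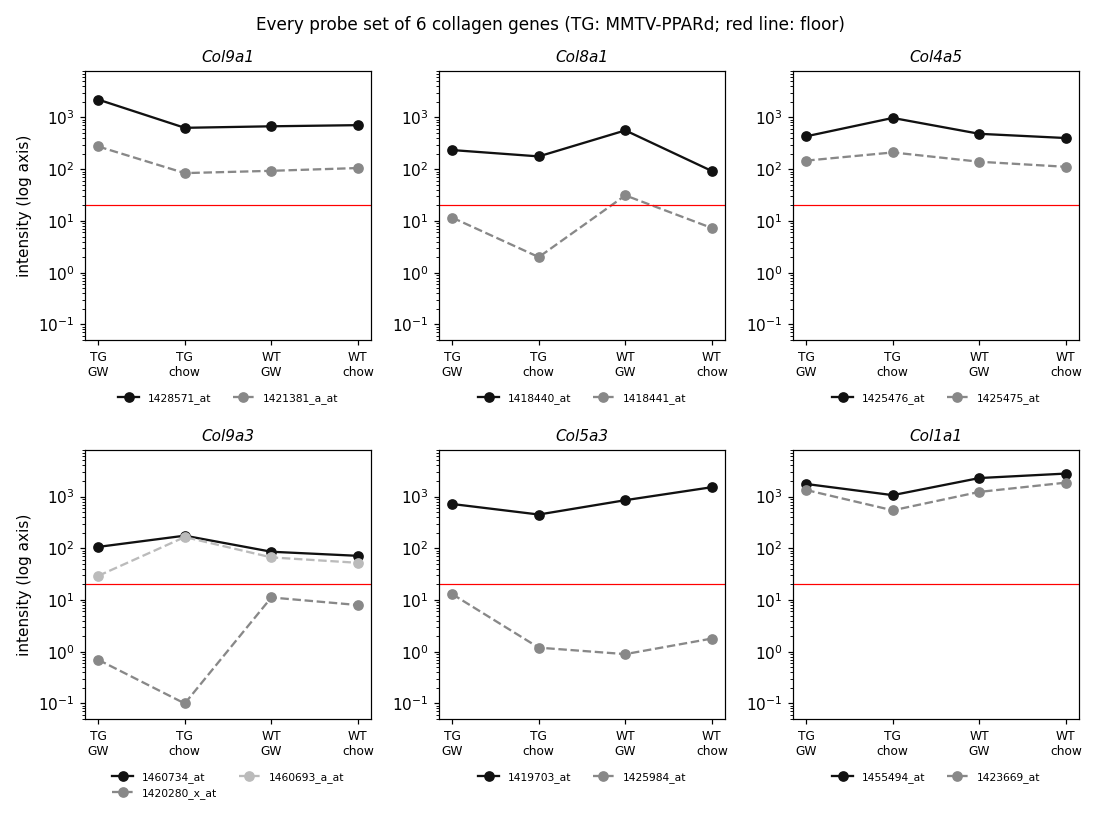
Intensity (log axis) of every probe set of 6 collagen genes on the 4 arrays, with the floor of 20.5 as a red line. The probe sets of Col9a1 share their high array and those of Col4a5 and Col1a1 share theirs, while the dim second probe sets of Col5a3 and Col8a1 lie mostly under the floor.

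The remaining kept collagens differed less, with 1 exception. Col13a1, a transmembrane collagen known from the neuromuscular junction, read 91.9 in transgenic mice on GW501516, 258 in transgenic mice on chow, 161.5 in wild-type mice on GW501516 and 255 in wild-type mice on chow. It was 2.81-fold lower on GW501516 in transgenic mice and 1.58-fold lower in wild-type mice, and the 2 chow pools were within 1.01-fold. On GW501516 the transgene went with a 1.76-fold lower level. Col17a1, the hemidesmosome collagen of basal epithelium, was 1.52-fold higher with the transgene on chow and 1.53-fold lower with GW501516 in transgenic mice, and on GW501516 it was 1.26-fold lower with the transgene. Col7a1, of anchoring fibrils, reached the filter on 2 arrays and ranged from 110.5 to 147, with a 1.33-fold lower level with the transgene on GW501516. Col15a1 and Col18a1, basement membrane collagens whose ends give restin-like and endostatin fragments, were 1.57-fold and 1.85-fold lower with the transgene on chow and 1.91-fold and 1.46-fold higher with GW501516 in transgenic mice. With the transgene on GW501516, Col15a1 was 1.15-fold higher and Col18a1 1.07-fold lower. The fibril-associated Col14a1 was 1.58-fold lower with the transgene on GW501516, and Col16a1 1.38-fold higher. The genes not kept, besides those named above, were Col12a1, Col19a1, Col20a1, Col22a1, Col25a1 and Col26a1, of which Col19a1, Col22a1 and Col25a1 were below the floor on all arrays.

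The GW501516 difference in transgenic mice minus that in wild-type mice had a median of 0.74 (log2) over the kept collagens, against 0.0054 over all kept genes. Col1a1, Col5a1, Col5a3, Col6a3 and Col9a1 were past 2-fold upward and Col4a5 and Col8a1 past 2-fold downward, where 4.42% and 5.25% of all kept genes were. The all-gene split of these calls leaned downward (45.7% upward) and leaned upward (55.8%) with arrays shifted to one median. The transgenic chow array was the lowest of the 4 for each of the 5 upward genes, and Col9a1 was the one of them with its highest value in transgenic mice on GW501516.

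Genes that make, trim and bind collagen were counted from lists drawn up for the family. Of the chain-modifying enzymes and chaperones, 15 of 16 kept genes were lower with the transgene on chow (median -0.54). In that comparison 48.0% of all kept genes were lower. Plod2, a lysyl hydroxylase that prepares cross-links, was 2.99-fold lower, at 165 in transgenic mice against 492 in wild-type mice. Of the procollagen cleavage and cross-linking genes, all 7 kept were lower with the transgene on chow (-0.82) and all 7 were higher with GW501516 in transgenic mice (0.50). In the latter comparison 46.8% of all kept genes were higher. Pcolce, which speeds removal of the procollagen end, was 2.18-fold lower with the transgene on chow, at 2612 in transgenic mice against 5688 in wild-type mice. Of the proteoglycans and glycoproteins of fibrils, 15 of 17 were lower (-0.46), with Thbs2 2.88-fold, Tnc 2.65-fold and Eln, elastin, 2.17-fold lower, while Thbs1, a secreted activator of TGF-beta, was 2.47-fold higher. With the transgene on GW501516, which leaves out the transgenic chow array, the medians of these lists were -0.06, -0.09 and -0.17.

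Other basement membrane proteins split in direction with the transgene on chow, as type IV did in that comparison. Of them 9 of 14 were lower (-0.33), where 48.0% of all kept genes were. Lamc1, the common laminin gamma chain, was 2.70-fold lower and Lamb3, a laminin-332 chain of epithelium, 2.72-fold higher. Lamb3 read 987.5 in transgenic mice on GW501516, 298.5 in transgenic mice on chow, 149.9 in wild-type mice on GW501516 and 110 in wild-type mice on chow. Its highest array was thus that of Col9a1 and not that of Col4a5. Collagen receptors, 5 of 11 kept, had a median near 0 with the transgene on chow (0.026), where Mrc2, an endocytic collagen receptor, was 2.05-fold lower. Transcriptional regulators of collagen, 12 of 16 kept, also had a median near 0 (0.14). Of them Sox9, which drives cartilage collagens, was 4.46-fold higher, and Ccn2, connective tissue growth factor, 3.50-fold higher, with the transgene on chow, where collagens were low. Creb3l1, which in mouse bone drives type I collagen, was 2.23-fold higher with GW501516 in transgenic mice and 3.28-fold higher with the transgene on GW501516.

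**Figure D4:**
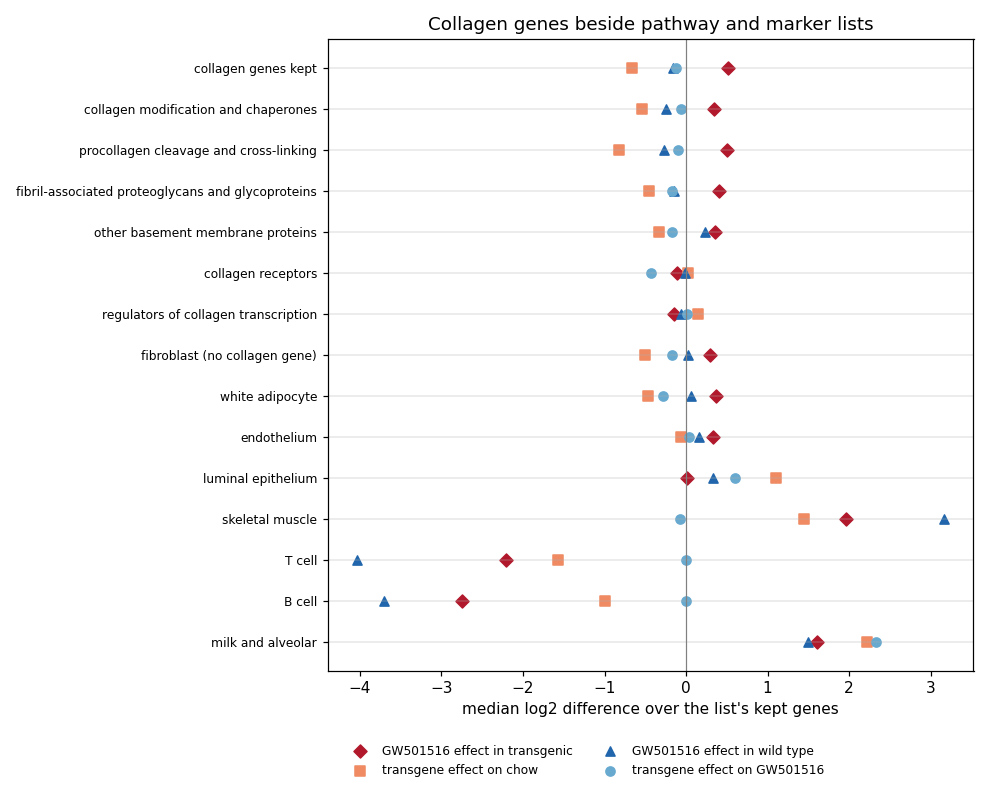
Median log2 difference over the kept genes of each list (rows) in the comparisons between 2 arrays (symbols), with values under the floor set to it. Collagens, their processing genes, fibroblast markers and fat cell markers lie below 0 for the transgene on chow and above 0 for GW501516 in transgenic mice. Milk markers lie above 0 in each comparison shown, between 1.501 and 2.33, and muscle markers at 1.45 or more except for the transgene on GW501516 (-0.07).

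Markers of collagen-making and neighbouring cells were read on the same arrays, where 48.0% of all kept genes were lower with the transgene on chow. Of the 13 fibroblast markers kept, none a collagen, 12 were lower with the transgene on chow (median -0.50), and their summed intensity was 51248 in transgenic mice on GW501516, 40669 in transgenic mice on chow, 55710 in wild-type mice on GW501516 and 55799 in wild-type mice on chow. White fat markers (8 kept, 8 lower, -0.47) summed to 65358, 47116, 68275 and 64346 in the same order of groups. Luminal markers ran the other way, at a median of 1.10 with the transgene on chow, and summed to 30101, 26723, 22575 and 20388, while milk and alveolar markers summed to 106264, 49507, 46214 and 17545. Macrophage markers had a median of -0.70 with the transgene on chow. Skeletal muscle markers were far higher on GW501516 than on chow, at a summed 131899 and 40184 in transgenic mice and 135800 and 18032 in wild-type mice. T cell markers summed to 206 and 1838 in transgenic mice and to 232 and 5961 in wild-type mice, GW501516 before chow, and B cell markers to 111 and 1379 in transgenic mice and to 174 and 2700 in wild-type mice. Epidermal Krt1, Flg, Ivl, Krt2 and Sprr1b were below the floor on all arrays. The part of each cell type in the collagen differences was not tested.

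Where a gene had several probe sets, they gave a measure of scatter between probe sets. They share the pool and the array, so their agreement says nothing of variation between pools or arrays and cannot stand in for replicates. Over 2534 genes the kept probe set and the others differed with an SD of 0.35 to 0.45 (log2) in the 4 comparisons of diet or genotype. Over the 12 collagen genes with a second bright probe set the SD was 0.25 for the transgene on chow, 0.21 for GW501516 in wild type, 0.66 for GW501516 in transgenic mice (largest 1.77, Col9a3) and 0.50 for the transgene on GW501516. These genes had the same sign in 12 of 12 for the transgene on chow, 12 of 12 for GW501516 in wild type, 10 of 12 for GW501516 in transgenic mice and 7 of 12 for the transgene on GW501516. Counted by probe set, 27 of the 35 that reached the filter were below 0 with the transgene on chow, where 47.0% of all 11483 named probe sets that reached it were, and 26 were above 0 with GW501516 in transgenic mice, where 46.0% were. Past 2-fold with the transgene on chow, 3 were higher and 10 lower, against 5.23% and 3.39% of all. Past 2-fold with GW501516 in transgenic mice, 4 were higher and 3 lower, against 3.74% and 4.23%. Some of these probe sets reached the filter only on the array where they were high. They were the counted Col9a3 probe sets (transgenic chow), a dim Col5a1 one (wild-type chow) and the second Col9a1 one (transgenic GW501516). The counts are therefore not independent of the filter.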

How the data were processed

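Pooled mammary RNA was hybridised to 4 Affymetrix mouse arrays, 1 per group. The deposited values were intensities, which per the labels came from labelled cRNA. Scanner software, summarisation, detection calls and genome build are not given in the sources used here. All 4 of the authors' arrays share a mean of about 500 after 2% was trimmed at each end.

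Gene symbols came from the platform annotation and were brought up to date through RefSeq gene IDs (20351 of 20380 probe sets with 1 symbol matched; 691 had several and 1619 none, 64 controls included). Members and lists were chosen with earlier results of these data known. The probe set with the highest mean stood for a gene. Intensities under 20.5, the 25th percentile, were set to that floor, log2 was taken, and genes with at least 1 array at 139, the median, were kept. With 1 pool per group no test was run; genes at least 2-fold apart were called. Full values are given for kept collagens called in a comparison of 2 arrays that differ in 1 factor, and for Col1a1, Col1a2, Col3a1, Col4a1, Col4a2 and Col6a1 to Col6a3; of other lists, members with the largest differences. Alternatives changed the scaling, floor, filter and choice of probe set. The calling step was run on simulated copies of the wild-type chow array with a noise SD set at 0.17 (log2). That noise was chosen and not measured between pools. The run therefore checks the calling step only and gives no error rate for the 2-fold calls. Python 3.11.15, numpy 2.4.6 and pandas 2.3.3 were used. Without replicates, the number of arrays limits the precision.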

Additional observations from a re-analysis of the deposited data

Results flagged for a closer look

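Several collagens had GW501516 differences of opposite sign in the 2 genotypes that were also at least 2-fold apart. These were not tested, since each group was 1 pool. The share of all kept genes with both features was not counted, so how unusual these collagens are is not known. For the gap alone, whatever the signs, the shares were 4.42% upward and 5.25% downward. As a log2 difference, the GW501516 effect in transgenic mice minus that in wild-type mice was 1.0 for Col1a1 (0.72 in transgenic mice, -0.29 in wild type), 1.21 for Col5a1 (0.95 and -0.26), 1.51 for Col5a3 (0.68 and -0.83) and 1.25 for Col6a3 (0.83 and -0.42). It was 1.89 for Col9a1 (1.81 and -0.07) and, with the signs turned, -1.45 for Col4a5 (-1.18 and 0.27). For the median over the 22 kept collagens it was 0.74 (0.51 and -0.16). All of these use the transgenic chow array, which stood apart in its BioB control. In wild type the differences of Col1a1, Col5a1, Col9a1 and Col4a5 were smaller than 0.35, the SD between probe sets for that comparison. Their other probe sets had the same sign there. Col5a3 and Col6a3 lay beyond that SD, but neither had another probe set above the floor. The SD is scatter within the same pools and says nothing of variation between pools. The wild-type sign is thus uncertain for all of these genes. Col9a1 was also 3.29-fold higher in transgenic than in wild-type mice on GW501516, a comparison without that array, where Col1a1, Col5a1, Col5a3, Col6a3 and Col4a5 differed by 1.02-fold to 1.30-fold.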

How the results depend on the processing

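No paired analysis was possible because each group is 1 array. Of 144 summaries recomputed under the alternatives, 124 kept their value within tolerance (0.1 in log2 for a median, 1.5 times for a count), and no median or called gene turned its direction. Dropping the filter added 14 dim collagens. Of these, 6 were below the floor on all arrays and so had a difference of 0, and 8 had a value at or above the floor. The collagen median was then -0.02 for GW501516 in wild type, 0.15 for GW501516 in transgenic mice, -0.24 for the transgene on chow and 0.1 for the difference of GW501516 effects. The median for the transgene on chow was -0.53 after quantile normalization and -0.79 with the mean over probe sets. For transgenic mice on GW501516 against wild-type mice on chow it was -0.3 with the stricter filter and -0.31 without probe sets of the shared types. With the mean over probe sets, 20 collagens were kept, since Col8a1 and Col9a3 dropped under the filter and gave no value. There the number called higher was 0 for GW501516 in wild type, 2 for GW501516 in transgenic mice, 1 for the transgene on chow and 1 for transgenic GW501516 against wild-type chow, and the number called lower was 1 for GW501516 in transgenic mice, 0 for the transgene on GW501516, 1 for transgenic GW501516 against wild-type chow and 1 for the difference of GW501516 effects. The shares of all 6887 kept genes called there were, in the same order, 3.19%, 3.89%, 5.2% and 5.27% higher and 3.57%, 1.13%, 4.08% and 4.7% lower. The stricter filter, which dropped Col9a3 and Col13a1 among others and left 17 collagens, gave 1 lower for GW501516 in transgenic mice (2.81% of all kept genes), 1 higher for the transgene on chow (4.98%) and 1 lower for transgenic GW501516 against wild-type chow (2.72%), and scaling to one median gave 2 higher for GW501516 in transgenic mice (4.48%). Of 14 called differences of single genes between 2 arrays, 12 stayed past 2-fold under every alternative that gave a value. Col4a5 with GW501516 in transgenic mice ranged from -1.18 to -0.85, and Col5a3 with the transgene on chow from -1.82 to -0.88, the last with its dim second probe set averaged in. The cause of the other shifts was not tested. Dim genes such as Col9a3, Col7a1 and Col4a6 lie near the filter, and no alternative stands in for a second pool.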
